A study of Mus musculus with 2 samples.

Results

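The TAL1 complex and the E proteins it pairs with were described here through the accessible chromatin at 10 of the 21938 protein-coding genes of the mouse annotation: Tal1, Lyl1, Lmo2, Lmo4, Ldb1, Tcf3, Tcf4, Tcf12, Cbfa2t3 and Ssbp3. They were chosen by name, as genes for TAL1, its paralog, its E protein partners and the adaptors and corepressor that assemble with them. Earlier results of these data were known when the genes were chosen. All 10 were found in the GENCODE M21 annotation, and every accessible region that overlapped a gene body or lay within 50 kb of it was taken. The assay was ATAC-seq, which uses a transposase to place sequencing adapters in DNA that is not packed in nucleosomes. It was applied to G1E, a male mouse C57BL/6J cell line of erythroid progenitors that carry no functional Gata1, labelled as postnatal, 0 day, with no treatment. The line is known as a derivative of embryonic stem cells with a disrupted Gata1, so it is a model of progenitors arrested without that factor. Both samples, 2 biological replicates of 50000 cells each, form 1 group, and no comparison between conditions was possible. The labels do not say whether the replicates were separate cultures.

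TAL1 is a basic helix-loop-helix factor that binds E-box DNA as a dimer with an E protein, a product of Tcf3, Tcf4 or Tcf12. LMO2 bridges this dimer to LDB1, a protein that self-associates and can bring distant DNA elements together, and GATA factors join the complex at sites where a partial E-box precedes a GATA motif. In erythroid cells the complex is known to occupy enhancers and promoters of red cell genes, and in early blood formation TAL1 and LMO2 are required for all blood lineages.

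The lists of replicates 1 and 2 held 21194 and 22620 regions after overlapping peaks were merged, and 17425 of 25799 joined regions were in both (67.5%). Peak lists give no read totals, so depth cannot be stated, and the absence of a region does not show closed chromatin. These main lists kept peaks that passed a threshold on the irreproducible discovery rate, a measure of how alike peaks rank in repeats. A longer list of each replicate, here called lenient, was used to look for weaker regions. Each region carries a signal, the enrichment value the authors' peak caller gave it. Signal is not scaled between libraries, so regions are compared by percentile, the rank of a region's signal within its own replicate's list. The labelled cell type was checked against markers. The 7 erythroid markers read here (Klf1, Epor, Slc4a1, Epb42, Kit, Tfrc and Gfi1b) had a promoter region in both replicates. So did 0 of 5 granulocyte and macrophage, 0 of 4 lymphoid, 0 of 3 mast cell and 1 of 4 megakaryocyte markers, Itga2b. The share among all protein-coding genes was 38.8%. The main list of replicate 1, but not that of replicate 2, also had a promoter region for the mast cell marker Cpa3. The same held for the megakaryocyte marker Pf4. Among weaker regions, Cpa3 had a promoter region in either replicate's lenient list, and Pf4 only in that of replicate 1. Gata1 had a promoter region in both replicates, with a mean percentile of 15.2, and an accessible start site does not check a deletion.

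Distal regions whose 200 bp around the summit hold the TAL1-GATA composite, a CTG followed after 7 or 8 bases by a GATA motif, were found near 4 of the 10 genes. Of all protein-coding genes, 11.3% had such a region in both replicates in the gene or within 50 kb. Neither share takes account of the length of a gene or its number of distal regions. A distal region of any kind in both replicates was found for 7 of the 10 genes, against 38.8%. Per distal region the composite share was 25% against 18.7%, and 12.5% against 15.2% with the lenient lists. The 5 windows are shown because they hold, in the 200 bp around the summit, the letters that the complex is known to recognise. Over their whole width, 9 of the 20 distal regions of these genes in both replicates held a composite, against 24.3% of all distal regions. The median width was 572 bp against 492 bp. The windows are given 5′ to 3′ on the forward strand of mm10, with the composite match in capitals. A match that begins with TTATC reads on the reverse strand.
Tal1, 7.98 kb upstream (chr4:115048346-115048545): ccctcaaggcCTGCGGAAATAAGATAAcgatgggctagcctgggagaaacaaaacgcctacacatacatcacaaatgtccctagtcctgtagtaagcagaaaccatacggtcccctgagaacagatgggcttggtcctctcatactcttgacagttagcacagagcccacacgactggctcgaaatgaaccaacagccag
Lyl1, 29.6 kb downstream of its 5′ end (chr8:84730909-84731108): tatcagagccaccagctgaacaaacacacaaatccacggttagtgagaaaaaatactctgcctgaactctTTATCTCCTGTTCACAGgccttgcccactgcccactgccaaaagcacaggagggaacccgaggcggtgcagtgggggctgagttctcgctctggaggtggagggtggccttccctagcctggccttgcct
Ssbp3, 2.11 kb upstream (chr4:106908487-106908686): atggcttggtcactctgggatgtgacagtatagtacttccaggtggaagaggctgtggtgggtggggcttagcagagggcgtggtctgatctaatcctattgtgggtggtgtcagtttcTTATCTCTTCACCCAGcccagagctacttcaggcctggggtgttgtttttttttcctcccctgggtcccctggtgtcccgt
Cbfa2t3, 20.8 kb upstream (chr8:122719839-122720038): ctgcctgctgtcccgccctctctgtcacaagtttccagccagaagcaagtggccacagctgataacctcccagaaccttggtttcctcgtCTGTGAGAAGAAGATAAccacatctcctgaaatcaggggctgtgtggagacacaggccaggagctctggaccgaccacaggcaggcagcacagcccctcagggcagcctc
Cbfa2t3, 13.4 kb inside the gene (chr8:122685571-122685770): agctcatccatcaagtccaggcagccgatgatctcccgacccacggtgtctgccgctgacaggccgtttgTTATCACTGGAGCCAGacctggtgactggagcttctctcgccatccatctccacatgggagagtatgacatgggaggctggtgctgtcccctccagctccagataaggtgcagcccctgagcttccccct

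Shorter stretches around the composite are shown for the 3 own promoter regions that hold one, and for the Tal1 region 39.4 kb downstream of its 5′ end, in which the match lies outside the 200 bp window. These 4 were chosen after their values were seen. The forward strand of mm10 is given again, with the match in capitals.
Lyl1, own promoter region (chr8:84701637-84701665): tgcttcTTATCAGCCGCGGCCAGgcagcc
Ssbp3, own promoter region at an internal start (chr4:106923123-106923169): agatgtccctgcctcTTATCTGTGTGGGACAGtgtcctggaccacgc
Cbfa2t3, own promoter region (chr8:122699196-122699242): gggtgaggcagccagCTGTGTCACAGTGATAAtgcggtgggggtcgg
Tal1, 39.4 kb downstream of its 5′ end (chr4:115095950-115095996): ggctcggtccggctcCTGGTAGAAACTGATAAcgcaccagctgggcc
A match of letters is a description and does not show that a factor is bound.

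Over all 10 genes, 57 merged regions of replicate 1 and 69 of replicate 2 lay in or near them, a mean of 63.0 ± 8.49 (SD, n = 2). Joined, these made 76 regions, and 45 (59.2%) belonged to both lists, against the 67.5% over all regions. Replicate 1 alone had 9 and replicate 2 alone had 22. The 45 comprised 13 regions at a start site of the genes themselves (within 1000 bp, here called own promoter regions), 11 at promoters of neighbouring genes, 1 at the start of a noncoding gene and 20 distal regions, over 1000 bp from every annotated start. The lists taken singly held 30 distal regions in replicate 1 and 36 in replicate 2. Each gene had a median of 4 regions in both replicates against 2 over all protein-coding genes, and 3.23 against 1.198 per 100 kb of gene and flanks. By regions per 100 kb the genes ranged from percentile 32.3 of protein-coding genes at Tcf12, with Tcf4 at 43.35, to 94.0 at Cbfa2t3.

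**Figure D1:**
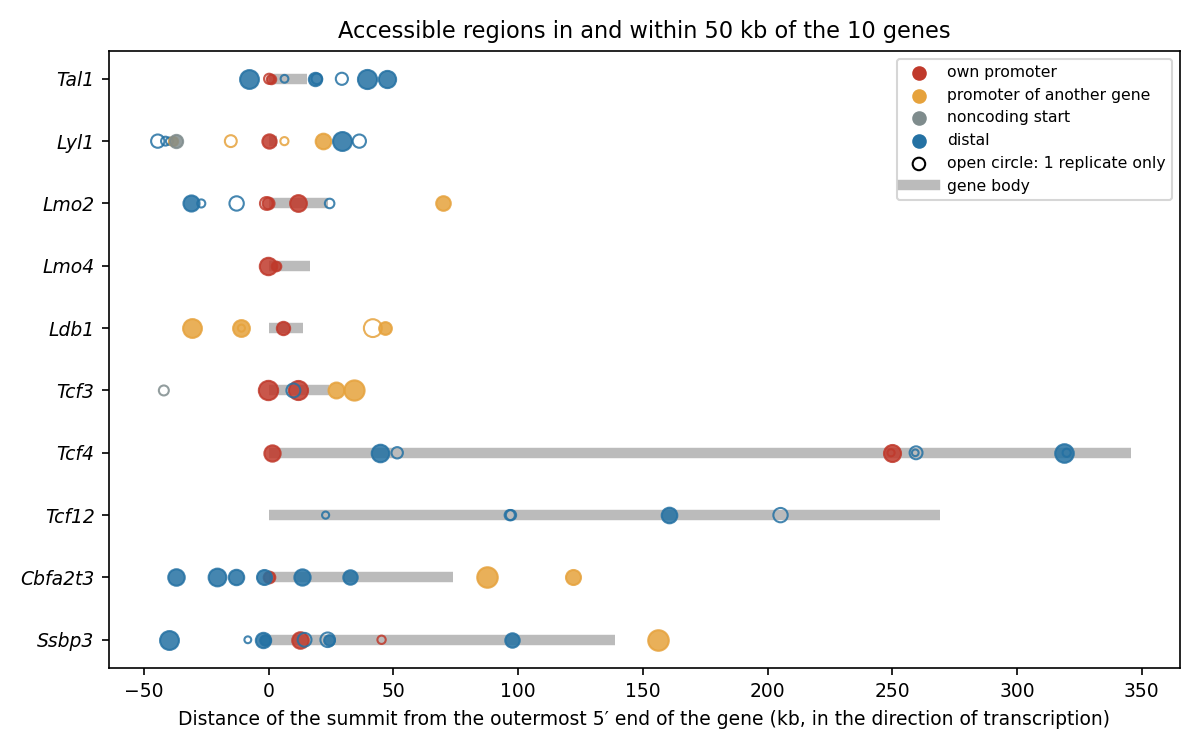
Each circle is an accessible region, placed by the distance of its summit from the gene's outermost 5′ end in kb (x axis, upstream negative), 1 row for each gene, with larger circles at a higher mean percentile of signal and grey bars for gene bodies. Filled circles are the 45 regions in both replicates and open circles the 31 in 1 replicate, and blue distal circles gather at Tal1, Cbfa2t3 and Ssbp3 while Lmo4, Ldb1 and Tcf3 have no filled one.

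Of the 10 genes, 9 had an own promoter region in both replicates, against 38.8% of protein-coding genes. The exception was Tcf12. Each replicate taken singly also gave 9, against 40.5% and 42.2% of protein-coding genes in replicates 1 and 2. At the outermost 5′ end 7 had one, against 35.5%, since the regions of Ldb1 and Ssbp3 lay at internal starts. In the stronger 50% of regions of each list the count fell to 4 of the 10 genes, against 27.1% of all genes. The median percentile was 55.2 over the 24 promoter regions in and near the 10 genes and 67.4 over all 8538 promoter regions in both replicates.

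Tal1, which gives the complex its name, had a weak promoter and stronger distal regions. Its own promoter region (mm10, chr4:115057308-115057760, over an exon at a start 1.06 kb inside the outermost end) had a signal of 4.65 in replicate 1 and 5.86 in replicate 2. These stood at the percentiles 7.12 and 16.0 of the 2 lists, near the bottom of both. A further region at the outermost start was listed in replicate 2 only, at percentile 15.3. The strongest distal region of the gene (chr4:115095529-115096808, intergenic, 39.4 kb downstream of the 5′ end) had signals of 13.2 and 12.8 and percentiles of 86.4 and 78.4. It lies at about the distance of the known erythroid enhancer of Tal1. The region 7.98 kb upstream (chr4:115048209-115048701, intergenic) had signals of 11.9 and 12.9 and percentiles of 80.0 and 79.0, nearly the same rank in both. Its window, printed above, holds the composite match. A region 47.3 kb downstream of the 5′ end ranked at 51.1 and 78.4, a gap of 27.3 points, and one at 18.6 kb ranked at 34.6 and 34.1. With 4 distal regions in both replicates Tal1 stood at percentile 96.6 of protein-coding genes. By regions of every class in both replicates per 100 kb it stood at percentile 89.3.

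Lyl1 encodes the closest relative of TAL1, with which it shares E protein and LMO2 partners. Its own promoter region (chr8:84701151-84701897, reaching from upstream into the first exon) had signals of 6.70 and 8.77, at percentiles 33.0 and 48.9. The 200 bp at its summit hold 2 GATA matches, 1 of them in the composite shown above, and no E-box. The strongest region near Lyl1 lay 29.6 kb downstream of its 5′ end within the neighbouring gene Nfix (chr8:84730712-84731217), with signals of 11.4 and 13.8 and percentiles of 76.5 and 83.9. It holds 1 composite match in its window and 2 over its whole width, and the files do not say which gene it serves. The other non-promoter region in both replicates lay at the start of a noncoding gene 37.3 kb upstream (chr8:84663943-84664306), at percentiles 38.2 and 29.5. The regions at Ier2 and G430095P16Rik promoters in the flanks ranked at means of 10.6 and 51.4. Replicate 2 listed 5 regions here that replicate 1 did not, against 1 the other way.

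Tcf3 encodes the E proteins E12 and E47 and had the strongest promoter of the set. Its region at the outermost end (chr10:80433598-80434323) had signals of 12.6 and 14.2, at percentiles 83.8 and 85.4. A second one at an internal start 11.8 kb inside the gene ranked nearly as high, at 76.8 and 88.1. Both windows hold a GATA match, and neither holds a composite. Tcf3 had no distal region in both replicates, and the other regions in its flanks were the promoters of Mbd3, a subunit of the NuRD corepressor complex, at a mean percentile of 93.3, and of Uqcr11 at 53.6. A region at a noncoding start 42.0 kb upstream, listed in replicate 2 only at percentile 14.3, holds a composite match.

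Tcf4, the E protein gene also called E2-2, spans 345.7 kb and had 2 own promoter regions in both replicates. The stronger lay at an internal start 250 kb inside the gene (chr18:69593206-69593820), with signals of 9.19 and 10.9 and percentiles of 60.2 and 66.3. The other, near the outermost end, ranked at 47.2 and 66.2. Both distal regions in both replicates lay in introns. The one 319 kb inside (chr18:69662106-69662963) had signals of 12.06 and 12.01, at percentiles 80.7 and 73.9, and the one 44.5 kb inside (chr18:69387558-69388206) had 10.1 and 11.1, at 67.4 and 68.3. The first holds a composite match over its whole width and none in its window. The second holds 3 GATA matches and 3 E-boxes in its window.

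Tcf12 encodes HEB, the remaining E protein, and had the fewest regions in both replicates, 1 against 2 for Lmo4. It had no own promoter region in either thresholded list. The lenient list of replicate 2 held one at the outermost end, with a signal of 2.88, and that of replicate 1 held none. The sequence around that end is rich in CpG (71.1% GC, observed to expected CpG ratio 0.992 in 1 kb). The single region in both replicates was intronic, 160 kb inside the gene (chr9:71951076-71951665), with signals of 8.49 and 8.77 and percentiles of 53.6 and 49.0. The other 4 regions in the 369.2 kb of gene and flanks were intronic and listed in 1 replicate each.

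Lmo2 encodes the LIM-only bridge of the complex. Its strongest own promoter region was at an internal start 11.6 kb inside the gene (chr2:103969287-103969726, exonic), with signals of 9.71 and 9.70 and percentiles of 64.5 and 57.1. The region at the outermost end ranked lower, at 28.3 and 23.3, and its window holds 3 GATA matches, where the internal one holds none. The single distal region in both replicates lay 31.1 kb upstream (chr2:103926640-103927277, intergenic), with signals of 8.95 and 9.14 and percentiles of 58.0 and 52.1. Lmo4, a LIM-only protein that also binds LDB1, had 2 regions in all, both in both replicates and both at its own starts. The stronger, 0.365 kb upstream of the outermost end (chr3:144205424-144205762), had signals of 9.73 and 11.1, at percentiles 64.7 and 68.2. Neither main list held any other region within 50 kb of Lmo4. The authors' conservative list over both replicates gave 3 regions in and around the gene, as did the lenient lists.

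Ldb1, the self-associating adaptor that LMO2 binds, had its own promoter region only at an internal start, 5.57 kb inside the outermost end (chr19:46039453-46039799, intronic). Its signals were 6.48 and 7.73, at percentiles 30.4 and 38.1. The outermost end had a region in the lenient list of replicate 2 alone. Ldb1 had no distal region, and its other regions in both replicates were promoters of Nolc1, Pprc1 and Armh3. The Armh3 region ranked at 50.1 in replicate 1 and 10.6 in replicate 2, the widest gap among the 45 regions at 39.5 points.

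Ssbp3 encodes a single-stranded DNA binding protein that holds LDB1 stable against its ubiquitin ligase RLIM. Its own promoter region in both replicates lay at an internal start 12.5 kb inside the gene (chr4:106922936-106923300), with signals of 10.3 and 8.81. The percentiles, 68.8 and 49.3, were the farthest apart of the 9 promoters. At its outermost end no region lay within 1000 bp, and the nearest one in both replicates was 1274 bp upstream. Ssbp3 and its flanks span 239.0 kb, and its regions of every class in both replicates per 100 kb stood at percentile 77.25 of protein-coding genes. Ssbp3 had 5 distal regions in both replicates, a count at percentile 98.4 that takes no account of that length. The strongest (chr4:106870527-106871209, intergenic, 39.9 kb upstream) had signals of 10.2 and 15.8, at percentiles 68.3 and 91.5, and holds 3 GATA matches in its window. The next (chr4:106908102-106908783, intergenic, 2.11 kb upstream) had 7.93 and 8.97, at percentiles 47.5 and 50.6, and holds the composite match printed above.

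Cbfa2t3 encodes ETO2, the corepressor of the complex, and had the most regions in both replicates. All 9 of its joined regions were in both replicates, and 6 were distal, at percentile 99.1 of protein-coding genes. By regions of every class in both replicates per 100 kb it stood at percentile 94.0. Its own promoter region (chr8:122699029-122699420) was weak, with signals of 6.36 and 6.07 and percentiles of 29.0 and 17.7. The strongest distal region lay 20.8 kb upstream (chr8:122719613-122720752, in the overlapping gene Gm20388), with signals of 10.1 and 11.5, at percentiles 67.5 and 70.9. It is 1140 bp wide and holds 3 composite and 7 GATA matches over that width. The region 37.2 kb upstream (chr8:122736062-122736618, also in Gm20388) had 8.29 and 10.8, at 51.6 and 65.6. A region in an intron, 13.4 kb inside the gene (chr8:122685395-122685877), had 9.01 and 9.40, at 58.4 and 54.7, and holds the composite match in its window that is printed above. The remaining distal regions ranked at mean percentiles of 42.2 to 49.5, and the regions at the Galns/Trappc2l and Aprt promoters at 96.6 and 46.5.

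**Figure D2:**
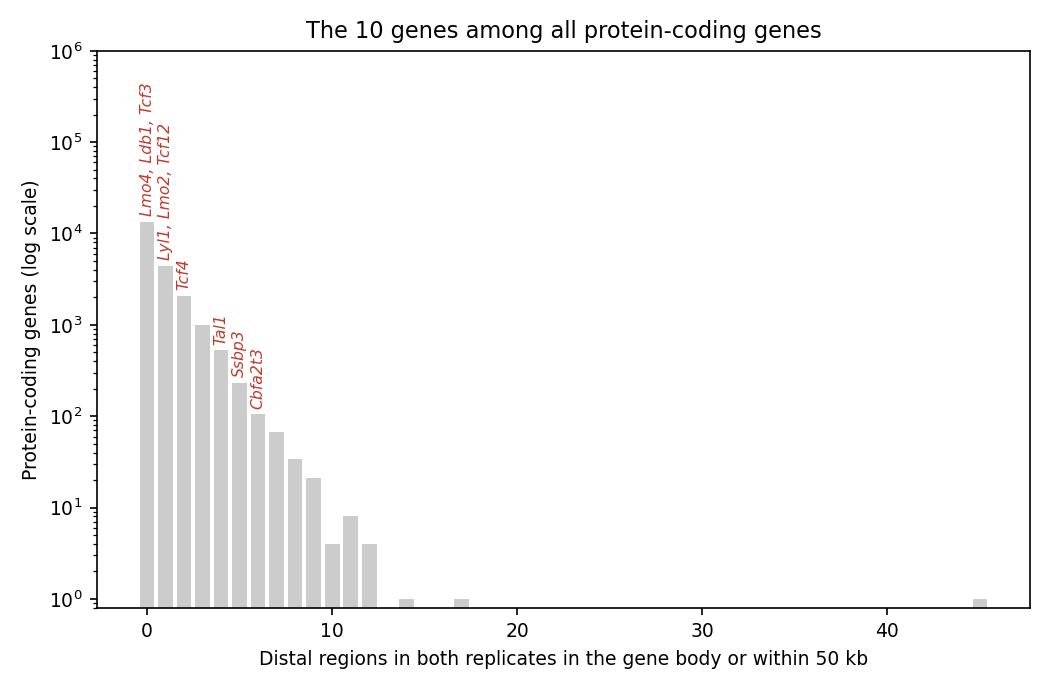
Grey bars give the number of protein-coding genes (y axis, log scale) with each number of distal regions in both replicates in the gene body or within 50 kb (x axis), and the red names stand above the bar of their gene. Cbfa2t3 with 6, Ssbp3 with 5 and Tal1 with 4 stand to the right, and Lmo4, Ldb1 and Tcf3 stand at 0.

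The 9 promoters fell in a wide order. By their strongest own region, Tcf3 led at a mean percentile of 84.6 ± 1.10 (SD, n = 2 here and below). Lmo4 at 66.5 ± 2.44, Tcf4 at 63.2 ± 4.28, Lmo2 at 60.8 ± 5.28 and Ssbp3 at 59.1 ± 13.8 followed with replicate values that overlap from neighbour to neighbour. Lyl1 at 41.0 ± 11.3 and Ldb1 at 34.2 ± 5.46 also overlap. Cbfa2t3 at 23.4 ± 7.98 and Tal1 at 11.6 ± 6.27 came last, and their replicate values do not overlap. With 2 libraries of 1 group the order was not tested.

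**Figure D3:**
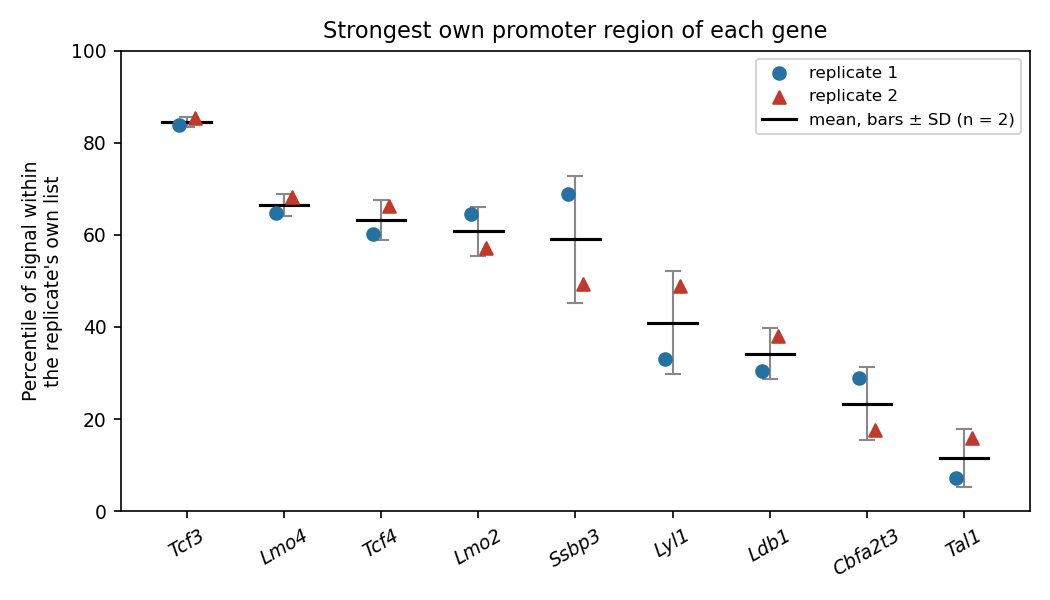
Circles and triangles give the percentile of signal (y axis, 0 to 100) of the strongest own promoter region in replicates 1 and 2 for the 9 genes that have one in both, with the mean as a black line and bars of ± SD. Tcf3 stands at 84.6 and Tal1 at 11.6, and the 2 replicates lie farthest apart at Ssbp3.

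Replicates ranked the regions of these genes much alike. The median absolute difference of percentile was 6.81 points over the 45 regions and 8.77 over all 17425. Shared regions had median percentiles of 53.7 and 54.7, and regions of 1 replicate had 15.8 and 14.8, so the unshared ones were weak, as they were over all regions (16.6 and 20.2). Of the 31 unshared regions, 21 were in the lenient list of the other replicate. The authors' conservative list over both replicates held 44 of the 45 shared regions, all but the Armh3 promoter, whose −log10 irreproducible discovery rate of 1.29 is just under that of a rate of 0.05, and it held 8 of the 31 unshared ones.

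**Figure D4:**
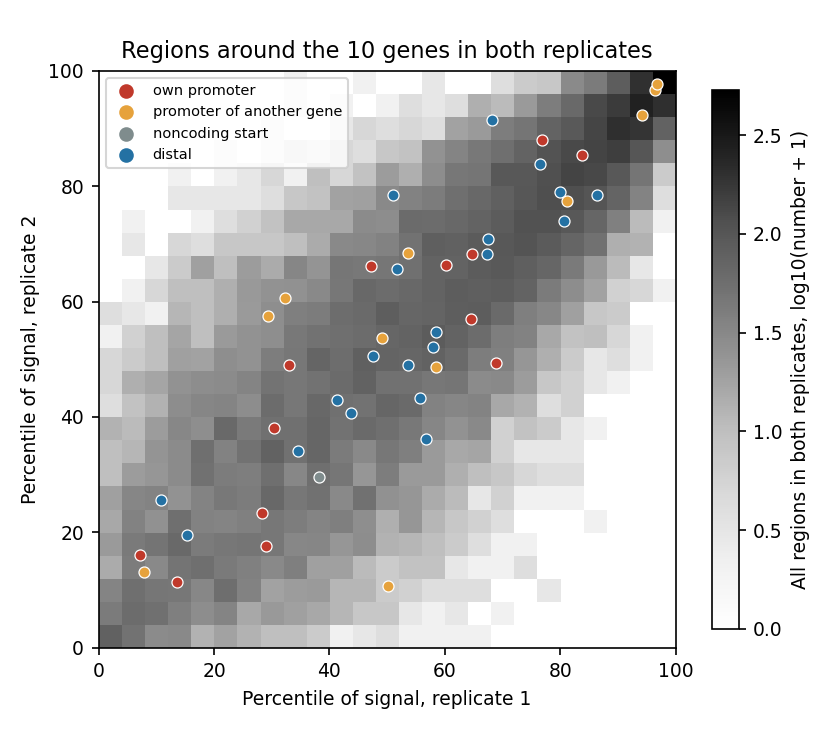
Each coloured point is 1 of the 45 regions in both replicates, at its percentile of signal in replicate 1 (x axis) and replicate 2 (y axis), over a grey map of the number of all 17425 regions in both (log10 of the number + 1). Most points lie near the diagonal, and the orange point at 50.1 and 10.6 is the Armh3 promoter near Ldb1.

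Motifs were searched as exact letters on both strands in 200 bp around each summit, for regions in both replicates. The E-box is CANNTG, and its CAGNTG form, the one known for TAL1 dimers, is a subset of it. The GATA motif is GATA with A or T before it and A or G after it, and every composite match contains one. In the 20 distal regions of these genes 75% held an E-box against 72.2% of all 8227 distal regions, 50% held CAGNTG against 50.1%, and 70% held a GATA match against 68.9%. These shares were close to the background, and the GATA share lay below it with the lenient lists (60% against 63.3%), the conservative list (53.3% against 66.5%) and replicate 2 taken singly (58.3% against 63.0%). The composite was in 5 of 20 (25%) against 18.7%, and in 16.7% against 16.3% in replicate 1 taken singly and 19.4% against 15.95% in replicate 2. Over the whole width of the regions it was in 9 of 20 (45%) against 24.3%, at a median width of 572 bp against 492 bp. Both GATA and CAGNTG were in 7 of 20 windows (35%) against 35.8%.

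The remaining motifs were counted in the same windows. RUNX (TGTGGT or TGCGGT) was in 30% against 26.9%. KLF1 (CCACACCC, CCACGCCC, CCCCACCC or CCCCGCCC) was in 20% against 15.3%, and NFY (CCAAT) in 15% against 22%. AP-1 (TGANTCA) was in 10% against 14%, and ETS (AGGAAGT or CGGAAGT) in 1 of 20, or 5.0%, against 17.2%. The CTCF motif was in 0 of 20 against 7.9%.

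Own promoter regions stood farther from their background in GATA letters. A GATA match was in 7 of 13 (53.8%) against 16.5% of all 8538 promoter regions, and the composite was in 3 of 13 (23.1%), at Lyl1, Cbfa2t3 and Ssbp3, against 2.76%. The 7 regions were 2 of Tcf3 and 1 each of Lyl1, Lmo2, Tcf4, Cbfa2t3 and Ssbp3. At Tal1, Lmo4 and Ldb1 no own promoter window held one. CpG content moved with these matches. Of 4 own promoter windows with an observed to expected CpG ratio under 0.5, at Lmo2, Tcf3, Cbfa2t3 and Ssbp3, 4 held a GATA match, against 43.8% of 1589 such promoter windows. Of the 9 with a higher ratio, 3 held one, against 10.3% of 6949. The part of CpG content in the pooled share was not tested.

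E-boxes were in 69.2% of the own promoter windows against 47.6%, and CAGNTG in 46.2% against 30.3%. KLF1 matches were in 8 of 13 (61.5%) against 40.4%, and NFY in 3 (23.1%) against 39.6%. RUNX was in 2 (15.4%) against 15.1%. ETS, AP-1 and CTCF letters were in 0 of 13, against 21.7%, 3.67% and 10.8%. The regions are few and some share a gene, so none of these shares was tested.

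**Figure D5:**
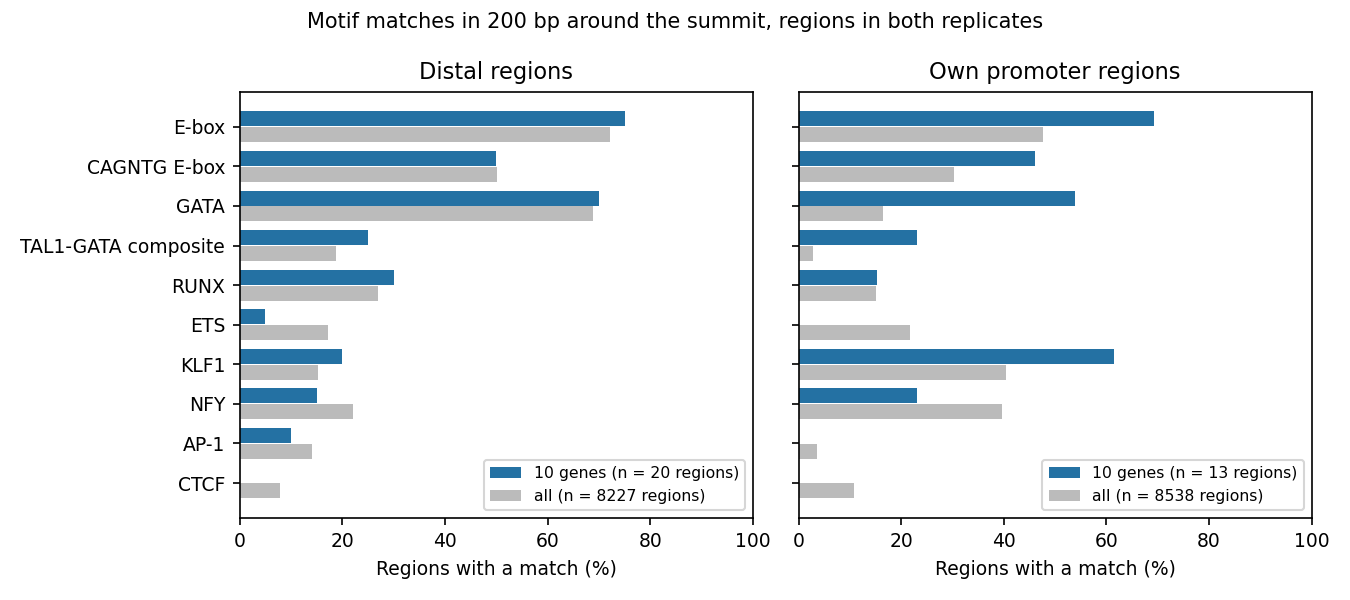
Bars give the share of regions with a motif match (x axis, %) for the 10 genes (blue) and for all regions of the same class in both replicates (grey), with 20 against 8227 distal regions on the left and 13 own promoter regions against 8538 promoter regions on the right. On the right the GATA bars stand at 53.8% against 16.5% and the composite bars at 23.1% against 2.76%, while the distal E-box and GATA bars are nearly equal.

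Genes that work with the complex were read in the same way. Their lists were chosen with earlier results of these data known, so the shares are a description and were not tested. Over 29 of them, 15 (51.7%) had a promoter region in both replicates against 38.8% of all protein-coding genes, and 7 (24.1%) did in the stronger 50% of regions against 27.1%, so the count was above the share of all genes in the first case and below it in the second. The 6 corepressors and modifiers all had one. Among them Hdac1, a histone deacetylase, had signals of 18.5 and 14.3 at a mean percentile of 92.4. Rcor1, a subunit of the CoREST corepressor, stood at 82.8, Kdm1a, the histone demethylase LSD1, at 63.2, and Hdac2 at 60.9. Sin3a, a corepressor scaffold, stood at 55.2, and Zfpm1, the GATA cofactor FOG1, at 41.4 with 7 distal regions in both replicates. Rlim, the ligase that acts on LDB1, had signals of 18.4 and 19.8 at 98.8.

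Of 8 DNA-binding partners, 5 had a promoter region in both replicates, against 38.8% of all protein-coding genes. Gata3 ranked highest at 96.6, and Gfi1b at 28.9, Klf1 at 23.3, Gata1 at 15.2 and Runx1 at 11.2 ranked low. Gata2, Fli1 and Erg had none, with 3, 3 and 7 distal regions in both replicates. The lenient list of replicate 2 alone held a promoter region of Erg, and neither lenient list held one of Gata2 or Fli1. Of the 4 Id genes, whose products keep E proteins from binding DNA, Id1 had one at 20.3 and Id2, Id3 and Id4 had none. Id3 had a promoter region in the lenient list of each replicate, and Id2 and Id4 had one in neither.

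Of 10 paralogs and alternative subunits, 2 had a promoter region in both replicates, against 38.8% of all protein-coding genes. These were Cbfa2t2, a relative of Cbfa2t3, with signals of 17.9 and 18.8 at a mean percentile of 98.1, and Ssbp2, a relative of Ssbp3, at 49.0. Tal2, Nhlh1, Nhlh2, Lmo1, Lmo3, Ldb2, Ssbp4 and Runx1t1 had none. Among these, only Ssbp4 had a promoter region in a lenient list, that of replicate 1.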

How the data were processed

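ATAC-seq peak lists of 2 replicates of G1E cells were used, in coordinates of mm10 per the labels. The aligner and peak caller were not given in the sources used here. The main lists were the thresholded lists of each replicate, filtered by the authors on the irreproducible discovery rate (IDR), a measure of how alike peaks rank in repeats, and made from the alignments, per the notes deposited with the samples. The columns are unnamed. In the deposited narrowPeak layout 1 holds a signal per peak and another a −log10 p value per peak, both as the authors' peak caller gave them. The authors' ranked list over both replicates gave the score used here, the −log10 irreproducible discovery rate, from its layout and values.

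The 26083 and 27810 summits were merged where intervals overlapped or touched, each region keeping its strongest summit. Regions of the replicates were joined where they shared 1 bp. Tied signals took the middle rank in percentiles. Classes and distances came from GENCODE M21. Motif matching used Python 3.11.15, numpy 2.4.6, pysam 0.24.0 and samtools 1.23.1, with 10 motifs, and was checked on simulated data. CpG ratios of windows used the same 200 bp.

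The members and lists were chosen with earlier results of these data known. Of the erythroid markers, 1 is not reported here. Regions given with coordinates are, for each gene, the own promoter region with the highest mean percentile and the 2 highest non-promoter regions in both replicates, plus those with a composite match in the window. The promoter windows of Tal1 and Lyl1 overlap exons and are not printed in full. No test was made: 1 group gives no contrast. Alternatives were the lenient lists, the conservative list, the stronger 50% of regions, each replicate left out, a reciprocal overlap of 50%, unmerged summits, promoter windows of 500 and 2000 bp, the outermost 5′ end only, flanks of 20 and 100 kb, motif windows of 100 and 400 bp, percentiles of −log10 p, and composite spacings of 6 to 9 bases.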

Additional observations from a re-analysis of the deposited data

How the results depend on the processing

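With the lenient lists the 10 genes had 73 regions in both replicates (main value 45), 40 of them distal (20), and a median of 6.5 per gene (4). The median percentile of each gene's strongest own promoter region was 75.9 (59.1), as a rank within those longer lists. In the stronger 50% of regions there were 21 regions, 11 of them distal, a median of 2, 4 genes with an own promoter region (9) and 7 genes of the partner lists with one (15). A flank of 20 kb gave 13 distal regions and a median of 2.5, and one of 100 kb gave 31 distal regions. With a promoter window of 2000 bp, 15 regions were distal. Without 1 replicate there were 57 to 69 regions, 30 to 36 of them distal, a median of 6 to 7 and a median percentile of 49.3 to 60.2, and the higher counts are those without replicate 1. The composite share in distal regions (25% against 18.7% of all) was 12.5% against 15.2% with the lenient lists, 36.4% against 23.7% in the stronger 50%, 20% against 18.2% with the conservative list, 20% against 11.6% and 40% against 22.6% in windows of 100 and 400 bp, 35% against 24.8% with spacings of 6 to 9 bases, and 16.7 to 19.4% without 1 replicate. It fell below the background with the lenient lists. The distal GATA share (70% against 68.9%) was 60% against 63.3%, 81.8% against 75.0% and 53.3% against 66.5% in those 3 lists, 55% against 51.6% and 90% against 79.4% in those windows, and 58.3 to 70% without 1 replicate. It lay below the background with the lenient and conservative lists and without replicate 1 (58.3% against 63.0%). The GATA share in own promoter regions (53.8%) was 40% in the stronger 50%, 30.8% and 61.5% in those windows, and 50 to 56.3% without 1 replicate. It exceeded the share of all promoter regions in each of these settings. Of the 90 counts for single genes under other settings, 61 stayed within 1.5 times. Of 74 values of the main results under other settings, 41 stayed and 33 moved. Counts had to stay within 1.5 times, and percentiles and shares within the SD of the 2 single-replicate values. The causes were not tested. The lenient lists lacked an overlap for 193 and 158 of the thresholded regions. Unknown depth limits every absence. No paired analysis was possible because both samples belong to 1 group.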
